A study of Mus musculus with 8 samples.

Results

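H3K27ac, a histone acetylation carried by active promoters and enhancers, was measured by CUT&RUN at 9 genes of the TGF-beta and BMP pathways in mouse colon cancer organoids lacking Gata6 and in their controls. The genes were Smad6, Smad7, Smad3, Tgfbr2, Bambi, Bmp4, Id1, Id2 and Id3, and each was given a fixed window of 80 to 200 kb on the mm9 genome. Of the 22731 peaks in the authors' table, 67 overlapped one of these windows by at least 1 base. In CUT&RUN, antibody-bound chromatin is cut free by a tethered nuclease and the released DNA is sequenced. The knockout organoids carried the genotype Gata6KO_AKP and the controls the genotype AKP, with 3 H3K27ac libraries from each, so every library shares the AKP background. The labels do not spell out AKP, and they give neither the means of deleting Gata6, nor the number of clones, nor an age or treatment. C57Bl6 is named as the recipient strain, and the organoids were dissociated to single cells before the assay. Nothing in the labels says whether replicates were separate cultures, and each p-value therefore reflects variation among these 6 libraries, which could be technical in part.

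Reads in peaks numbered 5495414 to 6196455 per knockout library and 5141856 to 7026388 per control library, and the 67 peaks held 28 to 3456 reads each. Levels are given as CPM, the reads of a peak per 1000000 reads in peaks after scaling by edgeR's TMM factors, so a change common to the whole genome cannot be seen. The table names no genes, and the gene annotation at hand describes another assembly (GRCm38.p6). A peak is therefore placed in a window and is not tied to a promoter, an intron or a gene. The deletion of Gata6 and the identity of the cells could not be checked with marker genes for the same reason. In the GRCm38.p6 gene order, the nearest protein-coding neighbours are Smad3 and Lctl for Smad6, Aagab and Smad6 for Smad3, Dym and Ctif for Smad7, and Gadl1 and Rbms3 for Tgfbr2. They are Cul2 and Lyzl1 for Bambi, Ddhd1 and Cdkn3 for Bmp4, H13 and Cox4i2 for Id1, Kidins220 and Rnf144a for Id2, and Rpl11 and E2f2 for Id3. Signal in a window may belong to such a neighbour.

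TGF-beta and BMP ligands bind paired serine/threonine kinase receptors, which phosphorylate the receptor-activated SMAD proteins. These enter the nucleus with SMAD4 and regulate genes, among them the inhibitory Smad6 and Smad7, which damp the pathway, and the Id genes, which are well-known BMP targets. In the gut, BMP signals favour differentiation away from the crypt base, and TGF-beta restrains epithelial growth until tumours lose the response.

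The promoter sequences of 6 of the 9 genes were found in the RefSeq promoter table (GRCm38.p6), with Smad7, Bambi and Id1 unmatched. Those of Smad6, Id2 and Id3 are shown because their windows held a peak that gained acetylation and their sequence held 1 of the 4 motifs searched. Tgfbr2, with no called peak, held CAGAC too. The Smad3 promoter held none of the 4, though its window also held a gain, and Smad6 held none wholly before the gene start. The choice of promoters shown therefore does not link gains to motifs. The motifs, read on both strands, were GTCTAGAC and CAGAC, which hold the core bound by SMAD proteins, GGCGCC, a GC-rich element of BMP-responsive genes, and GATAA, the core of GATA factor sites. None of the 4 contains another. Capitals mark the matches. Smad6 is read from the minus strand of chr9:64022056-64022309, Id2 from the minus strand of chr12:25096093-25096342 and Id3 from the plus strand of chr4:136143572-136143821, all 5′ to 3′ and in GRCm38.p6, and they cannot be laid over the mm9 peaks here.
Smad6: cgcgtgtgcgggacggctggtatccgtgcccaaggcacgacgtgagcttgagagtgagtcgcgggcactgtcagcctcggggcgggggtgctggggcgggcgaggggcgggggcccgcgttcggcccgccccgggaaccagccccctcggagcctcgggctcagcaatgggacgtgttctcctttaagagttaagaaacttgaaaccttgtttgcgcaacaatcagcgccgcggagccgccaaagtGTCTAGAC
Id2: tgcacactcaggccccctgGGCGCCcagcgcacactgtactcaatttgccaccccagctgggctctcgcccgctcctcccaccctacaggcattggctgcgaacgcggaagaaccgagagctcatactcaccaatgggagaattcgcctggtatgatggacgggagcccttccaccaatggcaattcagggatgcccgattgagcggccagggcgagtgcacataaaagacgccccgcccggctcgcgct
Id3: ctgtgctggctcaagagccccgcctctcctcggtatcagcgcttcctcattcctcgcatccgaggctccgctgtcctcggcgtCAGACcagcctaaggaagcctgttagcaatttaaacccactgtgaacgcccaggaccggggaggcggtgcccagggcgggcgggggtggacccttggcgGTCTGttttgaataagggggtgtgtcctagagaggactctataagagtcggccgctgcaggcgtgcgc
In Smad6 the palindrome GTCTAGAC spans bases 247 to 254, across the listed gene start, which follows base 250 (the last 4 bases lie past it). It was found in 0.213% of the 32851 promoter windows of 300 bases, and in 0.167% of them within the 250 bases before the start, the part the search was set up for; the wider search was added after seeing the data. In Id2, GGCGCC begins at base 20, and 9.59% of promoters held it before the start. In Id3, CAGAC begins at base 84 and its reverse complement at base 183, and 42.2% of promoters held either before the start. GATAA was found in none of the 6 promoters before the start and in 22.6% of all. These matches describe letters in 1 window per gene and do not show binding.

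Across the 67 peaks, acetylation was mostly higher in the knockout where it differed. It was called higher at 13 peaks (19.4%) and lower at 1 peak (1.49%), while 11.6% of all 22731 peaks were called higher and 10.2% lower (edgeR's quasi-likelihood test, Benjamini-Hochberg adjusted p under 0.05). This background includes chromosome 5, which holds none of the windows. With that chromosome left out, calls over all peaks went from 2640 higher and 2320 lower to 2347 and 1857. Those among the 67 became 12 higher and 2 lower. The 13 gains lay in the windows of Smad6 (6 peaks), Smad7 (3), Smad3 (1), Id2 (1), Id3 (1) and Bambi (1), and the loss lay in that of Smad3. The remaining 53 peaks did not pass the test, and their log2 fold changes ran from -0.56 to 0.66. Of the 67 peaks, 50 (74.6%) had a positive fold change, beside 48.9% of all peaks, and the median log2 fold change was 0.12, beside -0.01 over all peaks. The members were chosen as a pathway, with earlier results of these data known, and they share neighbourhoods, so these shares are descriptive. In 20 of the peaks all knockout libraries lay above all control libraries, which held for 17.5% of all peaks, and in 3 they lay below, which held for 16.2%. The gains were modest, between 1.24-fold and 2.40-fold, and 1 reached 2-fold. The windows held wider peaks than the genome at large, with a median of 4075 bp against 2690 bp. Their median level was 42.5 CPM against 27.7, or 11.3 CPM per kb against 10.7. With more reads per peak, smaller changes can pass the test, so the shares of called peaks are not like for like.

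**Figure D1:**
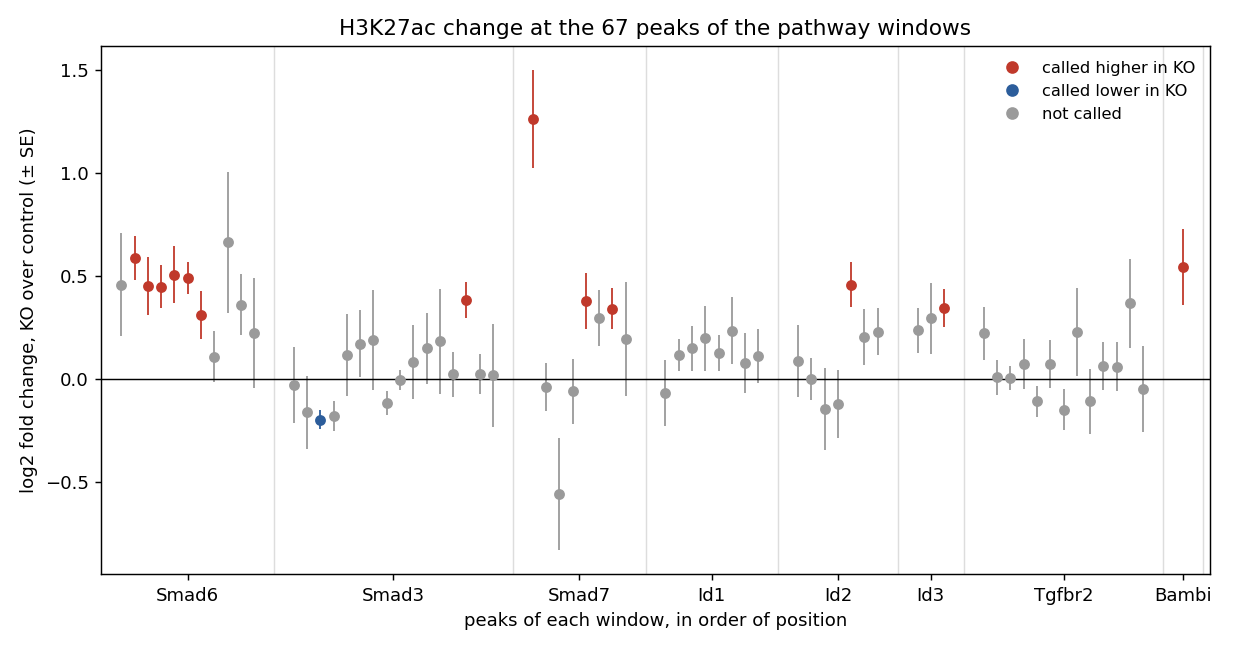
Log2 fold change of H3K27ac, Gata6 knockout over control, for each of the 67 peaks (vertical axis, whiskers are SE), placed in order of position within the 8 windows that held peaks (horizontal axis). Red points were called higher in the knockout, the blue point lower, grey points neither. All 11 Smad6 points lie above 0, while the 13 Tgfbr2 points run from -0.15 to 0.37 with none called.

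The windows were also compared as wholes by summing their peaks. Summed acetylation was called higher in the knockout in 6 of the 8 windows with peaks and lower in none, where 11.6% of the 22672 entries of that table were called higher and 10.2% lower. A sum holds more reads than most single peaks, so smaller changes can pass, and the shares are not like for like. In order of fold change the windows ran Bambi (0.54 ± 0.18, SE, log2 scale), Smad6 (0.43 ± 0.04), Id3 (0.30 ± 0.07), Smad7 (0.22 ± 0.05), Id2 (0.15 ± 0.05), Id1 (0.12 ± 0.04), Tgfbr2 (0.01 ± 0.03) and Smad3 (-0.05 ± 0.03). The 95% intervals of neighbours in this order overlapped in every case. Differences between windows were tested for Smad6, Smad7 and Smad3 only, as unplanned ratios within libraries given further on. In 5 windows the groups did not overlap, with the knockout libraries above in Smad6, Smad7, Id3 and Bambi and below in Smad3. For each of them a two-sided exact permutation test returned p = 0.1, its floor with 3 libraries in each group. Among all single peaks, the knockout libraries all lay above in 17.5% and all below in 16.2%. Sums hold more reads and may separate more readily, so these shares are not like for like either. The Id1, Id2 and Tgfbr2 sums overlapped between groups.

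**Figure D2:**
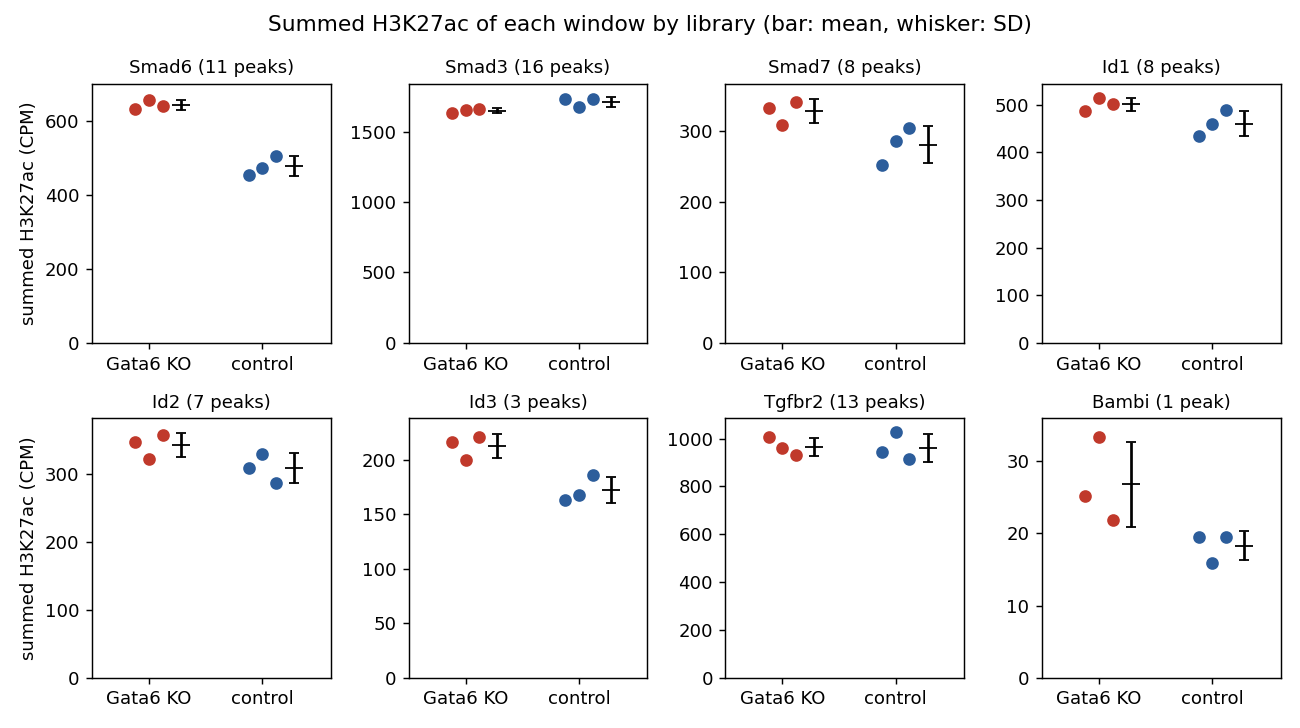
Summed H3K27ac of each window in CPM (vertical axis, from 0) by library, with Gata6 knockout in red on the left and control in blue on the right of each panel (bar, mean; whisker, SD, n = 3). The Smad6 knockout libraries, at 632 to 657 CPM, stand clear of the control libraries, at 454 to 506 CPM, and the Tgfbr2 groups overlap.

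Smad6 encodes an inhibitory SMAD that acts mainly on BMP signalling, and its window (chr9:63780000-63900000) gained acetylation over a run of neighbouring peaks. Its 11 peaks covered 53.7 kb, or 44.8% of the window. Their sum was 632, 657 and 640.4 CPM in knockout libraries, against 454, 472 and 506 CPM in control libraries. The lowest knockout library thus stood well above the highest control library. The log2 fold change of the sum was 0.43 ± 0.04 (SE), a rise of 34.6% (fold change 1.35; edgeR adjusted p = 7.70e-22). All 11 peaks had a positive fold change, and the 6 called higher were consecutive, the 2nd to the 7th from the low-coordinate edge, over 48.2 kb from 63802130 to 63850353.

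The strongest of these 6 by level was the 6th, an 11.7-kb peak from 63829599 to 63841320 with 25.4% of the window's signal and the rank 872 of 22731 by level. It held 158, 172 and 167 CPM in knockout libraries, against 116, 119.6 and 118.6 CPM in control libraries. The groups were far apart and tight, and the peak rose 1.40-fold (log2 0.49 ± 0.08, SE; edgeR adjusted p = 8.69e-09). The 2nd peak, from 63802130 to 63809303, held 95.4, 81.6 and 85.6 CPM in knockout libraries, against 58.1, 56.1 and 60.4 CPM in control libraries. Here too no libraries of the groups overlapped, and the rise of 50.2% was the greatest of the 6 (log2 0.59 ± 0.11, SE; edgeR adjusted p = 9.46e-07). The other 4 rose 1.24-fold to 1.42-fold: the 5th, from 63823402 to 63827476, by 1.42-fold, the 3rd by 1.37-fold, the 4th by 1.36-fold and the 7th by 1.24-fold. In each of them the groups were separate as well. The 3rd peak lost its call without control replicate 2 or knockout replicate 3 (log2 0.40 and 0.37). The 7th lost it without control replicate 1 or 2 or any 1 knockout library (0.25 to 0.33) and without chromosome 5 in the fit (0.29). Leaving out 1 library at a time left 4 to 7 called peaks and a sum between 0.40 and 0.47.

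No peak beyond the 7th was called, though all 4 there had positive fold changes. The 8th peak, directly beyond the 7th, had 48.8, 60.9 and 51.3 CPM in knockout libraries, against 43.5, 59.2 and 47.0 CPM in control libraries. These values overlap, and the log2 fold change was 0.11 ± 0.12 (SE; edgeR adjusted p = 0.605). The narrow 9th peak, from 63861822 to 63862900, had the highest fold change of the 11, log2 0.66 ± 0.34 (SE), at 13.3 ± 2.94 CPM in knockout and 8.30 ± 2.67 CPM in control libraries (SD, n = 3 each; edgeR adjusted p = 0.160), with as few as 28 reads. The 10th peak, at log2 0.36 ± 0.15 (SE), averaged 41.6 ± 4.43 CPM in knockout and 32.2 ± 6.46 CPM in control libraries (SD, n = 3 each; edgeR adjusted p = 0.0589). The nearest peaks outside the window lay 156 kb below its low edge and 134 kb above its high edge, with log2 fold changes of 0.02 and 0.07, neither called. No peak lay between the Smad3 and Smad6 windows.

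**Figure D3:**
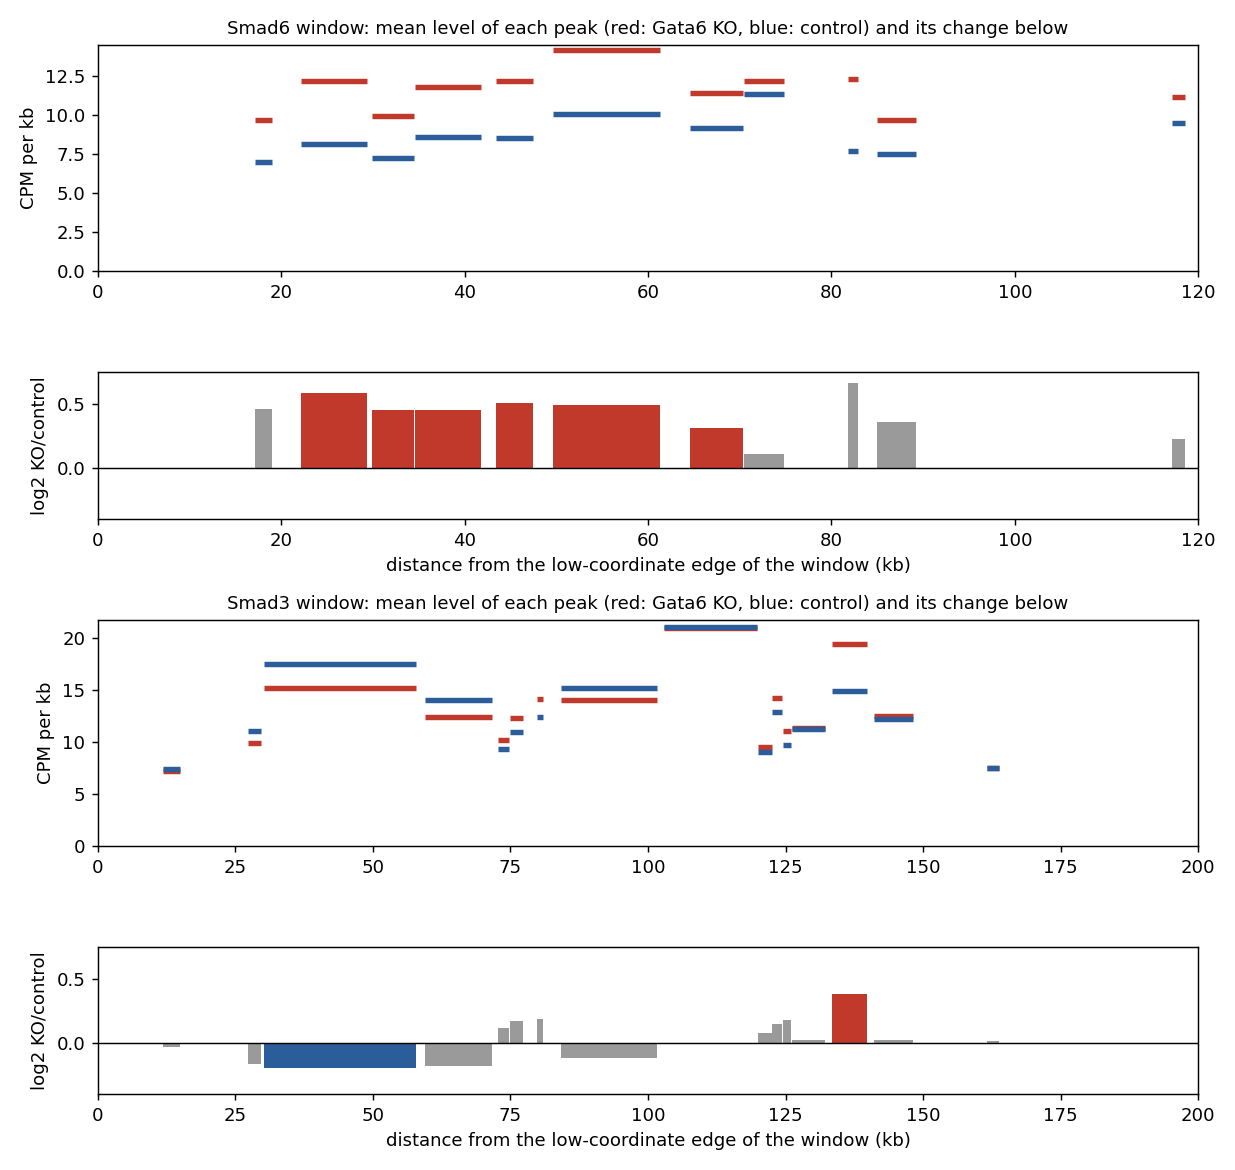
H3K27ac along the Smad6 window (upper 2 panels) and the Smad3 window (lower 2 panels), by distance in kb from the window's low-coordinate edge. Horizontal bars give the mean CPM per kb of each peak in Gata6 knockout (red) and control (blue) libraries (n = 3 each), and columns below give the log2 fold change of the same peak, red where called higher, blue where called lower and grey where not called. A stretch of 6 consecutive red columns spans 48.2 kb at Smad6, whereas at Smad3 1 broad peak is blue and 1 narrower peak is red.

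Smad7, the inhibitory SMAD that blocks both TGF-beta and BMP receptors, gained less and less evenly (chr18:75480000-75620000). Its 8 peaks summed to 334, 309 and 342 CPM in knockout libraries, against 253, 286 and 305 CPM in control libraries. The groups were separate but close, and the sum rose by 16.8% (log2 0.22 ± 0.05, SE; edgeR adjusted p = 0.000525). Without control replicate 1 the sum was no longer called (log2 0.16, edgeR adjusted p = 0.0533). The 1st peak, from 75484305 to 75486428, showed the greatest fold among the 67 members, with 18.5, 25.8 and 27.6 CPM in knockout libraries, against 8.001, 9.74 and 12.03 CPM in control libraries. Every knockout library exceeded every control library, and the rise was 2.40-fold (log2 1.26 ± 0.24, SE; edgeR adjusted p = 3.07e-06), but the peak is weak, at the 14.2th percentile of all peaks by level, with 46 to 172 reads.

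The highest peak of the Smad7 window, from 75543865 to 75551768, held 105, 77.1 and 100.4 CPM in knockout libraries, against 65.9, 78.1 and 78.9 CPM in control libraries. Knockout replicate 2 lay below 2 control libraries, so the groups overlapped, although the peak was called (1.27-fold; edgeR adjusted p = 0.0042). It lost its call without control replicate 1 or knockout replicate 1 (log2 0.27 and 0.26). The 5th peak, from 75530828 to 75534720, rose by 30.0% to 48.1 ± 4.72 CPM in knockout libraries, against 36.8 ± 5.08 CPM in control libraries (SD, n = 3 each; edgeR adjusted p = 0.0307), and lost its call without control replicate 1 or 2 or knockout replicate 1 (log2 0.30 to 0.33). The 3rd peak went the other way, with 8.36, 14.1 and 12.2 CPM in knockout libraries, against 14.3, 16.4 and 20.3 CPM in control libraries. These groups only just missed each other, and the log2 fold change of -0.56 ± 0.27 (SE) did not pass the test (edgeR adjusted p = 0.131). Just outside the low edge, a peak from 75456236 to 75461327 had a log2 fold change of 0.56 (edgeR adjusted p = 0.00014), with 59.6 ± 3.13 CPM in knockout and 40.4 ± 7.07 CPM in control libraries (SD, n = 3 each).

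Smad3, a receptor-activated SMAD of the TGF-beta branch, had the most signal of the 9 windows and the only lower call (chr9:63460000-63660000). Its 16 peaks covered 113 kb and reached 14.6 ± 0.133 CPM per covered kb in knockout and 15.2 ± 0.313 in control libraries (SD, n = 3 each), the greatest control level per length among the windows, where the others ran from 8.88 to 13.1. The peak from 63490121 to 63517869 is 27.7 kb wide and ranked 55th by level and 58th by width among all 22731 peaks. It held 423 CPM in each knockout library (422.7, 422.6 and 423.0), against 505, 455 and 495 CPM in control libraries. The knockout libraries were nearly equal and below all control libraries, and the signal fell by 12.8% (log2 -0.20 ± 0.05, SE, edgeR adjusted p = 0.000194). With trended offsets the fall was smaller but still called (log2 -0.12, edgeR adjusted p = 0.0346). The next peak, from 63519539 to 63531583, held 154, 138 and 156 CPM in knockout libraries, against 164, 174 and 170.1 CPM in control libraries. These groups were separate too, with a log2 fold change of -0.18 ± 0.07 (SE) that missed the threshold (edgeR adjusted p = 0.0563). It passed with DESeq2 (adjusted p = 0.0456), and in edgeR without chromosome 5 (adjusted p = 0.0322) or without knockout replicate 3 (adjusted p = 0.0495). It did not pass in edgeR with trended offsets (log2 -0.14, adjusted p = 0.188), total reads (adjusted p = 0.0757) or upper-quartile factors (adjusted p = 0.0674). Leaving out any other single library did not make it pass either, as without knockout replicate 2 (log2 -0.13, edgeR adjusted p = 0.299).

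On the other side of the Smad3 window, the peak from 63593415 to 63599740 gained acetylation. It held 125.7, 119.7 and 122.8 CPM in knockout libraries, against 97.1, 87.6 and 97.4 CPM in control libraries. The groups lay far apart, with a rise of 30.4% (log2 0.38 ± 0.09, SE; edgeR adjusted p = 0.000171). Between them, the 17.03-kb peak from 63562838 to 63579868 had 357 ± 3.81 CPM in knockout and 359 ± 14.7 CPM in control libraries (SD, n = 3 each), with a 95% interval of the log2 fold change from -0.10 to 0.09. As a whole the window summed to 1633, 1653 and 1663 CPM in knockout libraries, against 1730.3, 1672 and 1735 CPM in control libraries. The groups were separate by a narrow margin, and the log2 fold change of -0.05 ± 0.03 (SE) was not called (edgeR adjusted p = 0.128). It was called with DESeq2 (-0.05, adjusted p = 0.0235) and without chromosome 5 in the edgeR fit (-0.07, adjusted p = 0.0305). In edgeR it was -0.0038 with trended offsets (adjusted p = 0.947) and -0.00076 without the window's highest peak (adjusted p = 0.990).

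Because both windows are counted in the same library, the ratio of their sums does not depend on scaling. The Smad6 sum was 0.387, 0.397 and 0.385 of the Smad3 sum in knockout libraries, against 0.262, 0.282 and 0.292 in control libraries, a ratio 1.40 times as high in the knockout. The Smad7 sum was 0.199 ± 0.0104 of the Smad3 sum in knockout and 0.164 ± 0.0161 in control libraries (SD, n = 3 each). The Smad6 to Smad7 ratio was 1.962 ± 0.140 in knockout and 1.70 ± 0.0830 in control libraries (SD, n = 3 each). In all 3 ratios the knockout libraries lay above the control libraries, with an exact two-sided permutation p = 0.1 (0.1 after Benjamini-Hochberg adjustment over the 3 ratios), the smallest possible. The ratios were not planned. For those over Smad3 the separation followed from the sums, which were higher in the knockout at Smad6 and Smad7 and lower at Smad3.

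Tgfbr2, the type II TGF-beta receptor that starts signalling when it binds ligand, showed no called peak in its window (chr9:115950000-116130000). Its 13 peaks summed to 1004, 961 and 929 CPM in knockout libraries, against 943, 1026 and 914 CPM in control libraries. These values interleave. The log2 fold change was 0.01 ± 0.03 (SE; edgeR adjusted p = 0.934), with a 95% interval from -0.06 to 0.07. Its widest peak, 16.2 kb from 116016507 to 116032727, held 265, 244 and 239.9 CPM in knockout libraries, against 236, 276 and 235 CPM in control libraries. The groups overlapped, with a log2 fold change of 0.01 ± 0.06 (SE; edgeR adjusted p = 0.968). In 2 of the 13 peaks, the 1st and the 12th, the knockout libraries all lay above the control libraries, which held for 17.5% of all peaks. Neither of the 2 passed the test (edgeR adjusted p = 0.236 and 0.232). The 12th had 20.9 ± 1.15 CPM in knockout and 16.2 ± 0.647 CPM in control libraries (SD, n = 3 each).

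Bambi, a decoy receptor that lacks a kinase domain and damps TGF-beta and BMP signals, had 1 weak peak of 1.97 kb in its 100-kb window (chr18:3460000-3560000). From 3480413 to 3482382 it held 25.2, 33.4 and 21.8 CPM in knockout libraries, against 19.5, 16.0 and 19.5 CPM in control libraries. The groups were separate, with knockout replicate 2 well above the others, and the peak was called (1.46-fold, log2 0.54 ± 0.18, SE; edgeR adjusted p = 0.0193). The call was lost without knockout replicate 2 (log2 0.36, adjusted p = 0.281) or control replicate 2 (log2 0.46, adjusted p = 0.0957). Bmp4, a secreted BMP ligand, had no peak of the authors' set within its 200-kb window (chr14:46900000-47100000). The nearest peaks lay 621 kb below and 280 kb above it, and neither was called. A window with no peak may still carry acetylation below the limit of peak calling.

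The Id genes encode helix-loop-helix proteins that lack a DNA-binding region and hold back differentiation factors. At Id3 (chr4:135660000-135740000) the 3 peaks summed to 217, 200.1 and 221 CPM in knockout libraries, against 163, 168 and 186 CPM in control libraries. The groups were separate, and the sum rose by 23.2% (log2 0.30 ± 0.07, SE; edgeR adjusted p = 0.000103). Of this signal 52.1% came from the peak from 135728170 to 135734886, which held 113.5, 99.9 and 123 CPM in knockout libraries, against 87.7, 83.4 and 93.9 CPM in control libraries. All knockout values lay above the control values (1.27-fold; edgeR adjusted p = 0.00146). The remaining 2 peaks, from 135696035 to 135701231 and from 135703271 to 135705620, had log2 fold changes of 0.24 ± 0.11 and 0.29 ± 0.17 (SE), with separate groups but no call. Their sum without the highest peak was still called (log2 0.25, edgeR adjusted p = 0.0369).

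At Id2 (chr12:25700000-25850000) 1 of 7 peaks was called. From 25821978 to 25826938 it held 74.2, 84.5 and 80.6 CPM in knockout libraries, against 52.5, 66.6 and 55.6 CPM in control libraries. The groups were separate, with a 1.37-fold rise (log2 0.46 ± 0.11, SE; edgeR adjusted p = 0.000339). The peak with the most signal, from 25779451 to 25786659, averaged 79.6 ± 8.21 CPM in knockout and 79.8 ± 3.45 CPM in control libraries (SD, n = 3 each; edgeR adjusted p = 0.999). The 6th and 7th peaks, which follow the called one, had log2 fold changes of 0.20 ± 0.14 and 0.23 ± 0.11 (SE) and were not called. The sum without the highest peak, which had almost no fold change, was called (log2 0.20, edgeR adjusted p = 0.00578). Leaving out such a peak raises the fold change of the sum, so this call is no further support. The sum was 348, 323 and 357 CPM in knockout libraries, against 309.9, 330.5 and 287 CPM in control libraries. Knockout replicate 2 lay below control replicate 2, and the rise of 11.1% was called by edgeR (adjusted p = 0.024) while the exact two-sided permutation test gave p = 0.2. It lost the call without control replicate 3 or knockout replicate 1 or 3 (log2 0.10 to 0.14), and without chromosome 5 in the fit (0.13). The sum of the wholly inside peaks was not called either (log2 0.13, edgeR adjusted p = 0.0836).

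At Id1 (chr2:152520000-152600000) no single peak was called, while 7 of 8 had a positive fold change. The sum was 487, 514 and 502 CPM in knockout libraries, against 434, 459.8 and 488 CPM in control libraries. The lowest knockout library lay just under the highest control library. The rise of 8.76% was called by edgeR (log2 0.12 ± 0.04, SE; adjusted p = 0.0346), with an exact two-sided permutation p = 0.2, and was lost without control replicate 1 or 2 or knockout replicate 2 or 3 (log2 0.08 to 0.12), and without chromosome 5 in the fit (0.10). The highest peak, from 152520948 to 152528337, held 133, 143 and 144.6 CPM in knockout libraries, against 118, 132.8 and 137 CPM in control libraries. These overlap, and the log2 fold change was 0.12 ± 0.08 (SE; edgeR adjusted p = 0.322).

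**Figure D4:**
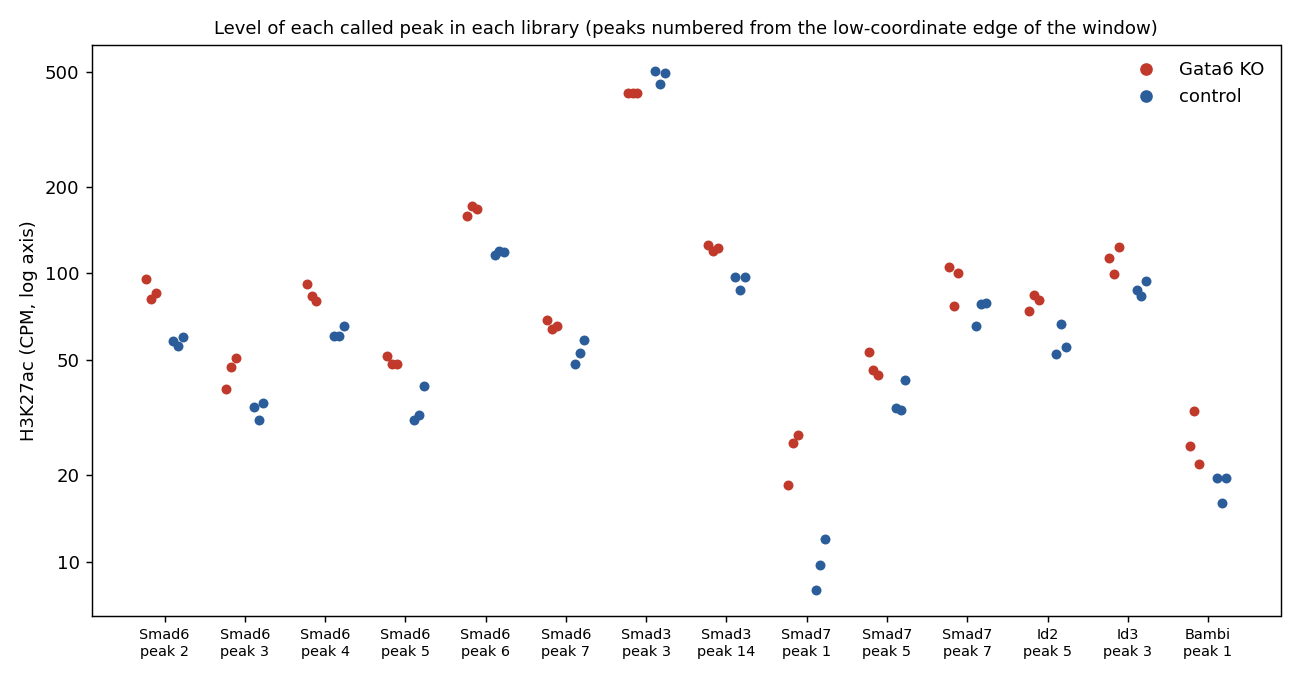
H3K27ac level in CPM (vertical log axis) of the 14 called peaks in each library, Gata6 knockout in red left of control in blue, with peaks numbered from the low-coordinate edge of their window. The groups are separate at 13 of the 14 peaks, Smad7 peak 7 being the exception, and Smad3 peak 3 is the one with knockout libraries below control libraries. The peaks were called from these same libraries, so the separation is not a further test.

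The windows' edges decide membership. The outermost peaks inside the windows had log2 fold changes from -0.07 to 1.26, and the nearest peaks outside them ran from -0.47 to 0.56. Beyond the Smad7 peak already described, 1 such outside peak was called, 24.1 kb above the Id2 window from 25874072 to 25876610, with 22.8 ± 3.50 CPM in knockout and 31.7 ± 2.34 CPM in control libraries (SD, n = 3 each; edgeR adjusted p = 0.0243). The peaks at other genes of the pathway, such as Smad4, Tgfbr1, Acvr1b, Bmpr1a and Grem1, were not analysed here, because no annotation of mm9 was used.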

How the data were processed

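The values are counts: reads per peak as deposited, unnormalized, over a peak set common to 6 paired-end H3K27ac CUT&RUN libraries. The genome build was mm9, and the tools named, per the submitters' processing notes, are SEACR, bedtools, Bowtie, SAMtools and Picard. Tool versions and roles, the merging of peaks and the read counter are not given in the sources used. Between 82.8% and 88.9% of counts per library were even, so mates may have been counted separately and counting error may be wider than the counts imply. H3K4me3 and IgG data were not used here, and no background was subtracted.

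All 22731 peaks passed edgeR's expression filter, the 67 members included. They were tested in edgeR 4.0.16 (R 4.3.3) with TMM factors and group alone in the quasi-likelihood model. Tests were two-sided, p-values were adjusted by Benjamini-Hochberg over all peaks, and calls needed an adjusted p under 0.05. Standard errors came from the F statistic, and 95% intervals from a normal approximation to them. For window sums, the member peaks were replaced by 1 summed row per window (22672 rows in all), with the library sizes and factors of the peak table. Exact permutation tests used SciPy 1.17.1. The model was tested on simulated data with known changes. Alternatives were DESeq2 1.42.0, other scalings, filters, thresholds and window rules, a replicate block, chromosome 5 left out, and each library left out in turn. The text names, per window, the highest peak and up to 6 called peaks by adjusted p, or, with none called, the largest fold change among peaks of at least the median level. Other peaks it names were chosen after their values were seen, and the ratios between windows were not planned. Likeness between windows across libraries is not given, since the libraries form 2 groups. The members and lists were chosen with earlier results of these data known.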

Additional observations from a re-analysis of the deposited data

How the results depend on the processing

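With DESeq2, DESeq2 size factors, total reads, upper-quartile factors, trended offsets, both other filters, halved counts, a replicate block, chromosome 5 left out, an adjusted p under 0.01 and peaks wholly inside the windows, 10 to 14 of the 67 peaks were called higher. Of all peaks, 2197 to 2743 were called higher and 1857 to 2409 lower, with no such count made at an adjusted p under 0.01. Fewer peaks were tested with the stricter read filter and without chromosome 5. With no filter the fit equalled the main one, since all peaks had passed the filter. The count of wholly inside peaks reused the main fit and dropped only uncalled peaks, so neither count could move. Tested against 1.5-fold (glmTreat), 1 peak was higher, 0 were lower and 0 were called at Smad6, a threshold that most of these changes lie below. Of all 22731 peaks, 381 were higher and 85 lower in that test, so the 67 held no excess of gains there. The lower count of 1 became 2 with DESeq2 or chromosome 5 left out, both calls then lying in the Smad3 window. It also became 2 with trended offsets, where only 1 of the 2 lay in the Smad3 window. Across fits lacking 1 library, 9 to 14 peaks were higher and 1 to 2 lower, beside 2220 to 2367 higher and 1741 to 1996 lower among all peaks. No label pairs libraries by number, and deviations of same-numbered libraries correlated at 0.00591 to 0.0671. With the number as a replicate block, 14 peaks were called higher, 7 of them at Smad6, and 2 lower, the second being the Smad3 peak from 63519539 to 63531583 (adjusted p = 0.0455), and all 14 calls made without it were shared. Leaving chromosome 5 out of the scaling lowered each window sum by 0.019 (log2): Smad3 was then called (-0.073), Id1 (0.10) and Id2 (0.13) were not, and Tgfbr2 changed sign (-0.013). DESeq2 called Smad3 (-0.054), which was not called with trended offsets (-0.0038) or without its highest peak (-0.00076). Id1 was not called without its highest peak (0.12), nor Id2 with wholly inside peaks (0.13). With 1 library left out, sums ran from 0.16 to 0.29 for Smad7, 0.084 to 0.17 for Id1, 0.10 to 0.20 for Id2, -0.029 to 0.055 for Tgfbr2, and 0.36 to 0.67 for Bambi. The Id2 peak from 25779451 to 25786659, at -0.00031, took the values 0.00039 (DESeq2), 0.000027 (its size factors), 0.010 (total reads), 0.0032 (upper quartile), 0.031 (trended offsets) and 0.0028 (halved counts), and -0.081 to 0.067 with 1 library left out. The widest Tgfbr2 peak was -0.014 without chromosome 5 and -0.040 to 0.085 with 1 library left out. Among 304 values of the 19 peaks named by rule, 276 kept direction and side of the threshold, 15 lost the call and 13 changed sign, the 13 all at these 2 uncalled peaks. The 304 values leave out the adjusted p under 0.01 and the test against 1.5-fold, which kept 1 of the 14 calls. They include the fit with no filter, which could not differ. GTCTAGAC was in 0.213% of promoters when the search, by a choice made after seeing the data, crossed the gene start. Depth limits the weakest peaks, with as few as 28 reads in a library.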
